A study of Mus musculus with 5 samples.

Results

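A small set of regions held peaks of both SOX13lo libraries of immature γδ thymocytes and of neither SOX13hi library. Many of them had a peak of a SOX13hi library a short way off, so lack of an overlapping peak does not show closed DNA. The regions were short. They ranked low in the transgenic SOX13lo list, and their median rank was below the middle of the SOX13lo list. Their widths were like those of other regions held by exactly 2 of the 4 γδ libraries. Ranks were set only against whole lists. After the peaks of all 5 libraries had been merged into 157434 regions, 885 of the 153269 autosomal regions met this rule. Of these, 505 were also present in double-positive (DP) thymocytes and 380 were absent from them. The regions were chosen by presence in the 4 γδ peak lists, so their presence in the SOX13lo lists and their absence from the SOX13hi lists are given as a description, with no test. Position along the autosomes and spacing were not used by the rule. DP peaks took part in the merging, so presence in DP was not independent of the choice, and it is given below also with DP kept out of the merging.

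ATAC-seq marks open DNA by letting a transposase cut and tag it. The thymus makes γδ T cells, named after the chains of their antigen receptor, and αβ T cells, which pass through the DP stage, at which both CD4 and CD8 are on the cell surface. SOX13 is a transcription factor of the SOX family, known in mice for its part in the development of γδ T cells that make IL-17. CD24 is high on immature thymocytes and falls as they mature.

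The SOX13lo libraries came from γδ thymocytes sorted as CD24+ with low or no CFP, and the SOX13hi libraries from those with high CFP. CFP was read from a reporter placed at 1 copy of the Sox13 gene (Sox13 ECFP KI/+), and 40000 cells were sorted for each γδ library. Transgenic SOX13lo and transgenic SOX13hi cells came from TCRbeta KO.Sox13tg+.Sox13 ECFP KI/+ animals. SOX13lo and SOX13hi cells came from TCRbeta KO.Sox13 ECFP KI/+ animals. All 4 γδ libraries therefore lacked TCRbeta and carried the reporter, whereas DP cells came from wild-type animals. All animals were of the C57BL/6 strain. The sources used here do not give the promoter of the transgene, the age of the animals or any pooling. Each of the 5 groups had 1 library, so the differences below are between libraries and no p-value is given.

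The peak lists differed in length, which limits what absence from a list can show. Transgenic SOX13lo had 33155 peaks and SOX13lo 67482, against 63932 in transgenic SOX13hi, 54435 in SOX13hi and 113877 in DP. Read depth is unknown. Peaks of the SOX13lo library carry the name SOX13hi-ATAC on each line, against Sox13hi-ATAC in the SOX13hi library. The sample labels were followed. With these 2 lists exchanged, 405 regions met the rule in place of 885. No gene names or sequences are given, because the lists are on mm9 and the gene table at hand is on GRCm38.

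Of the 18369 autosomal regions that SOX13lo and transgenic SOX13lo had in common, the 885 were 4.82% (exact 95% interval 4.51 to 5.14). The reverse pattern, regions of both SOX13hi libraries that neither SOX13lo library had, was more frequent. It held 3755 of the 28876 regions common to both SOX13hi libraries, or 13.0% (12.6 to 13.4). The gap was smaller with each list reduced to its best-scored peaks, as many as the shortest list has. This cut shortens the lists and drops their low-scored peaks together, so these were not told apart. After it, 1015 regions were in both SOX13lo libraries alone and 2095 in both SOX13hi libraries alone. These were 6.39% (6.02 to 6.78) and 10.7% (10.3 to 11.1) of the regions common to each pair. Among regions held by exactly 2 of the 4 γδ libraries, 907 were common to transgenic SOX13lo and transgenic SOX13hi and 405 to transgenic SOX13lo and SOX13hi. Patterns with SOX13lo and without transgenic SOX13lo were larger, with 5049 regions for SOX13lo and transgenic SOX13hi and 3688 for SOX13lo and SOX13hi. Each of the 3 patterns that include transgenic SOX13lo, the shortest list, had under 1000 regions.

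**Figure D1:**
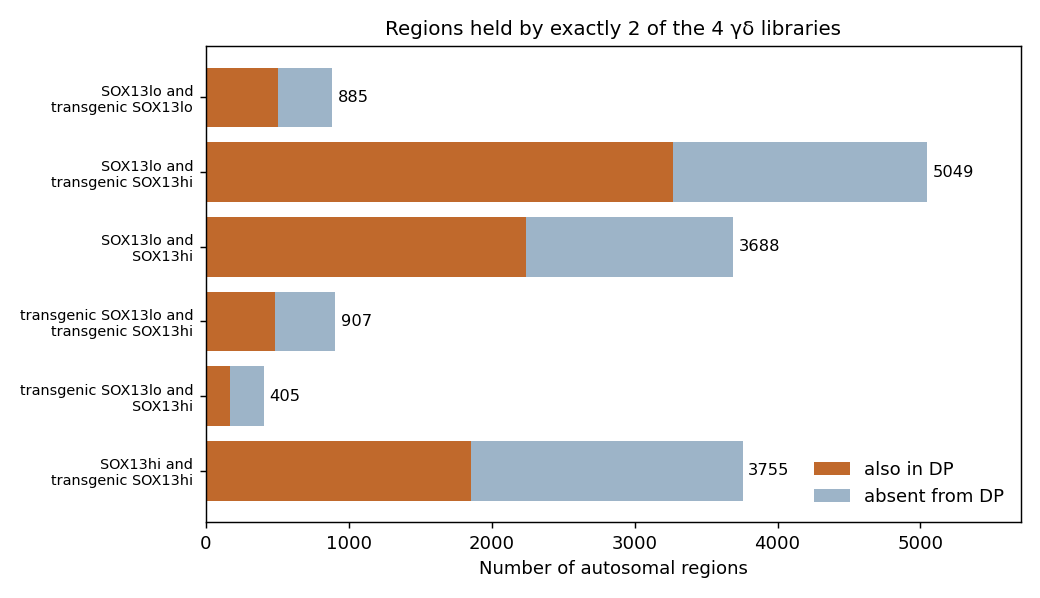
Number of autosomal regions (x axis) in each pattern of exactly 2 γδ libraries (y axis), split into regions also in DP and regions absent from DP. The 885 regions of both SOX13lo libraries are the top bar, and the 3755 regions of both SOX13hi libraries are the bottom bar.

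DP held 505 of the 885 regions, or 57.1% (53.7 to 60.4), but DP peaks also helped to choose them. In 103 of the 505, a DP peak joined SOX13lo and transgenic SOX13lo peaks that did not meet each other. Among the 782 regions whose SOX13lo and transgenic SOX13lo peaks met directly, DP held 402, or 51.4% (47.8 to 55.0). Elsewhere a DP peak joined a region to a peak of a SOX13hi library and so removed it. When only the peaks of the 4 γδ lists were merged and DP was looked up afterwards, 1010 regions met the rule, and DP held 630 of them, or 62.4% (59.3 to 65.4). The 380 regions absent from DP had the same bases in both mergings.

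With either merging the share was close to that of other regions found in the same number of γδ libraries. Over autosomal regions held by exactly 2 γδ libraries DP held 58.0% with all 5 lists merged and 62.0% with the 4 γδ lists merged. Over all autosomal regions of at least 1 γδ library it held 49.6% and 55.3%, in the same order of mergings.

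Against single patterns the share differed in both directions by more than counting error, with all 5 lists merged and with the 4 γδ lists merged. It was above the 49.5% (47.8 to 51.1) of the regions of both SOX13hi libraries, with a ratio of 1.15 (1.08 to 1.23). With the 4 γδ lists merged the ratio was also 1.15 (1.09 to 1.21), from 62.4% in both SOX13lo libraries and 54.3% (52.8 to 55.8) in both SOX13hi libraries. The share was below the 64.7% (63.4 to 66.1) of the regions common to SOX13lo and transgenic SOX13hi, which was 67.3% (66.1 to 68.6) with the 4 γδ lists merged. It did not separate from the 60.7% (59.1 to 62.2) for SOX13lo and SOX13hi or from the 53.4% (50.1 to 56.6) for the 2 transgenic libraries, nor from their 64.2% (62.7 to 65.7) and 58.6% (55.5 to 61.7) with the 4 γδ lists merged. The 3 patterns that contain the SOX13lo list had the 3 highest shares in both mergings. These patterns share libraries, so they are not independent of each other.

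The ratio of 1.15 depended on the non-transgenic pair of lists. With SOX13lo and SOX13hi exchanged it was 0.652 (0.581 to 0.732). In the transgenic pair taken alone, DP held 34.5% (33.2 to 35.7) of the regions of transgenic SOX13lo that transgenic SOX13hi lacked, and 49.3% (48.8 to 49.8) of the reverse set. In the non-transgenic pair it held 39.0% (38.5 to 39.6) of the regions of SOX13lo that SOX13hi lacked, and 32.5% (31.7 to 33.3) of the reverse set. With lists of equal length these shares were 23.8% against 40.3% in the transgenic pair and 34.5% against 27.4% in the non-transgenic pair. With the 4 γδ lists merged they were 46.3% against 54.4% in the transgenic pair and 46.9% against 43.7% in the non-transgenic pair, all peaks included. The fractions of the transgenic pair therefore stood the other way round from those of the non-transgenic pair.

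The share in DP was also compared between regions of like rank, with each deposited score turned into a percentile within its list and only the 4 γδ lists merged. In no band of SOX13lo percentile did the interval of the regions in both SOX13lo libraries stand apart from those of the other patterns of SOX13lo and 1 further library. Intervals that meet do not show equal shares, and the differences were not tested. In all 4 bands the share in both SOX13lo libraries was below that for SOX13lo and transgenic SOX13hi. It was also below that for SOX13lo and SOX13hi, except between the 25th and 50th percentile. Above the 75th percentile DP held 61 of 93 of the regions in both SOX13lo libraries, or 65.6% (55.0 to 75.1). It held 76.9% (72.1 to 81.2) of those common to SOX13lo and transgenic SOX13hi and 68.9% (63.7 to 73.8) of those common to SOX13lo and SOX13hi. Between the 50th and 75th percentile the shares were 66.2% (60.8 to 71.3), 73.0% (lower bound 70.9) and 69.9% (67.5 to 72.2), in the same order. Between the 25th and 50th percentile they were 64.9% (59.4 to 70.1), 65.7% (63.6 to 67.9) and 61.6% (59.0 to 64.2). Below the 25th percentile they were 53.6% (47.4 to 59.7), 59.2% (56.5 to 61.9) and 56.8% (53.4 to 60.1). With all 5 lists merged, the 885 regions and the regions of SOX13lo and transgenic SOX13hi had come apart above the 75th percentile, at 52.9% (40.4 to 65.2) and 71.0% (65.3 to 76.3), and between the 50th and 75th, at 58.3% (52.1 to 64.3) and 69.7% (67.4 to 71.9). Regions found in SOX13lo alone were at 33.7% to 51.5% in the 4 bands with the 4 γδ lists merged, below all of these patterns in the same band.

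Where DP held 1 of these regions, its peak mostly ranked in the upper 50% of the DP list. The DP score had a median of 21, at the 68.5th percentile of the DP list, the first quartile was at percentile 50.1, and 173 of the 505 DP peaks (34.3%) were in the upper 25% of that list. The median percentile was also 68.5 for the regions of SOX13lo and transgenic SOX13hi and for those of SOX13lo and SOX13hi. It was 67.4 for the regions of both SOX13hi libraries, 92.2 for regions in all 4 γδ libraries and 31.3 for regions found in DP alone. Among the 505 were the 103 regions whose SOX13lo and transgenic SOX13lo peaks met only through a DP peak. DP peaks thus helped to choose the regions whose DP rank is given. The ranks were not computed without these 103 or with the 4 γδ lists merged.

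**Figure D2:**
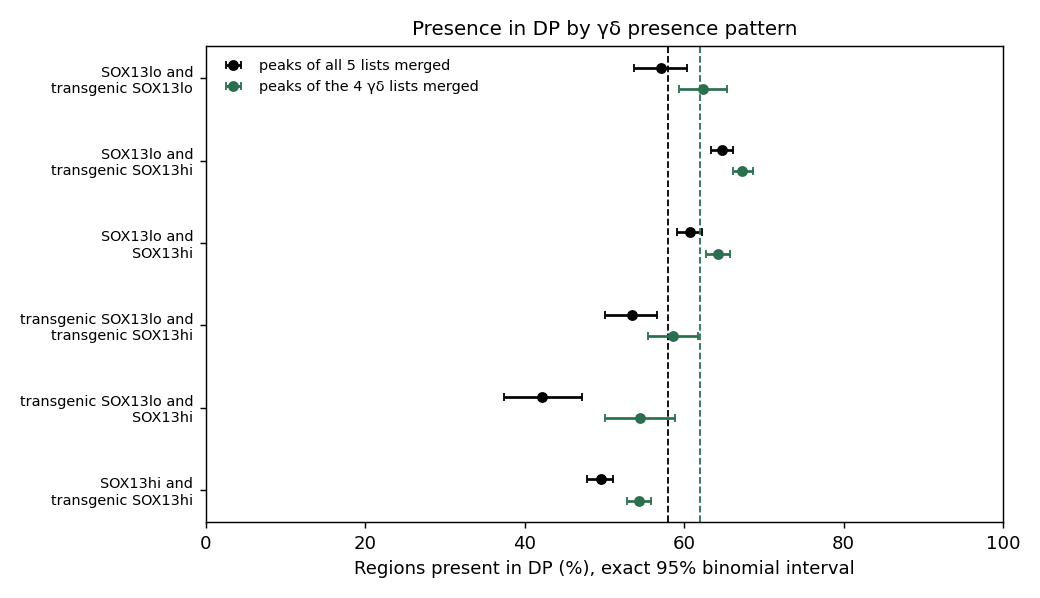
Share of regions present in DP (x axis, %) for each pattern of exactly 2 γδ libraries (y axis), with exact 95% binomial intervals. Black points are regions merged from all 5 lists and green points regions merged from the 4 γδ lists, and the dashed line of each colour is the share over all regions of exactly 2 γδ libraries (58.0% and 62.0%). In the top row the intervals of both points (57.1% and 62.4%) hold their lines, and in the bottom row both points (49.5% and 54.3%) lie below.

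The 885 regions ranked low in transgenic SOX13lo, and in SOX13lo their median rank was below the middle of the list. In transgenic SOX13lo their scores ran from 8 to 88 with a median of 9, where 8 is the lowest score of that list, and 316 regions (35.7%) were at that minimum. In SOX13lo the scores ran from 8 to 248 with a median of 13, and 158 regions (17.9%) were at the minimum of 8. With ties at the mid-rank, a score of 8 stood at percentile 10.2 in transgenic SOX13lo and 8.05 in SOX13lo. The share of each whole list at its minimum was not computed, so these counts have no background beside them. The median percentile was 25.7 in transgenic SOX13lo and 44.4 in SOX13lo. In the upper 25% of their list there were 16 regions in transgenic SOX13lo and 68 in SOX13lo. Scores of the 2 lists are not on a common scale, since what the score counts is not stated.

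The peaks behind the regions were short. In transgenic SOX13lo 613 of the 885 (69.3%) were 28 to 30 bp wide, against 50.2% over that whole list. In SOX13lo 438 (49.5%) were, against 43.6% over that list. The merged regions had a median width of 150 bp with DP and 73.0 bp without, and ranged from 28 to 699 bp. A region with DP includes the width of its DP peak. In 782 regions (88.4%) a SOX13lo peak met a transgenic SOX13lo peak directly, and the overlap then had a median of 27 bp. In the other 103 the SOX13lo and transgenic SOX13lo peaks met only through a DP peak that spanned both.

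**Figure D3:**
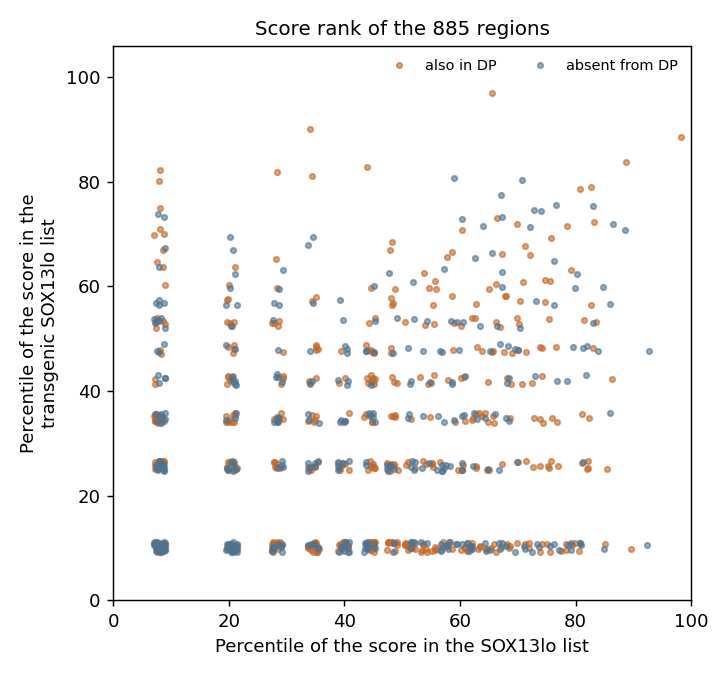
Percentile of the score in the SOX13lo list (x axis) against that in the transgenic SOX13lo list (y axis) for the 885 regions, coloured by presence in DP, with a jitter of up to 1 percentile to part tied scores. Most points lie in the lower left, with medians of 44.4 on the x axis and 25.7 on the y axis.

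Many of the regions lay beside a peak of the SOX13hi libraries. A SOX13hi or transgenic SOX13hi peak was within 200 bp of 413 regions (46.7%) and within 1 kb of 576 (65.1%; 61.8 to 68.2). Over all 25798 regions of SOX13lo or transgenic SOX13lo that both SOX13hi lists lacked, the share within 200 bp was 46.6%. Within 1 kb it was 68.3%, so both shares were near those of the 885. With the 4 γδ lists merged the share within 1 kb was 72.2% (69.3 to 74.9), against 72.6% over all such regions. Absence of an overlapping peak thus often meant a peak that ended a short way off. Just inside the rule, 56 regions had a SOX13hi or transgenic SOX13hi peak at most 10 bp away, and 4 of them touched it without a shared base. Just outside it, 146 regions of both SOX13lo libraries met a single SOX13hi or transgenic SOX13hi peak that shared at most 10 bp with a SOX13lo peak or met it only through another list.

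Whether regions with and without DP differed in this distance depended on the merging. With all 5 lists merged, a SOX13hi or transgenic SOX13hi peak was within 200 bp of 40.4% (36.1 to 44.8) of the 505 regions with DP and 55.0% (49.8 to 60.1) of the 380 without. The median distances were 390 bp with DP and 140 bp without. With the 4 γδ lists merged, the share within 200 bp was 58.4% (54.5 to 62.3) of the 630 regions with DP, against the same 55.0% without, and the median with DP was 134 bp. Within 1 kb the share was then 73.3% (69.7 to 76.7) with DP and 70.3% (65.4 to 74.8) without. The gap seen with all 5 lists was thus not found once DP was kept out of the merging. Joining by DP peaks removes regions with DP that lie close to a SOX13hi peak. Of the 1010 regions, 227 were not among the 885. All 227 were in DP, which was built in, since the mergings differ only in the DP peaks. Within 10 kb the share was 85.1% (81.7 to 88.1) with DP and 82.9% (78.7 to 86.5) without when all 5 lists were merged. With the 4 γδ lists merged it was 89.2% (86.5 to 91.5) with DP, an interval that met the one without DP at its end.

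**Figure D4:**
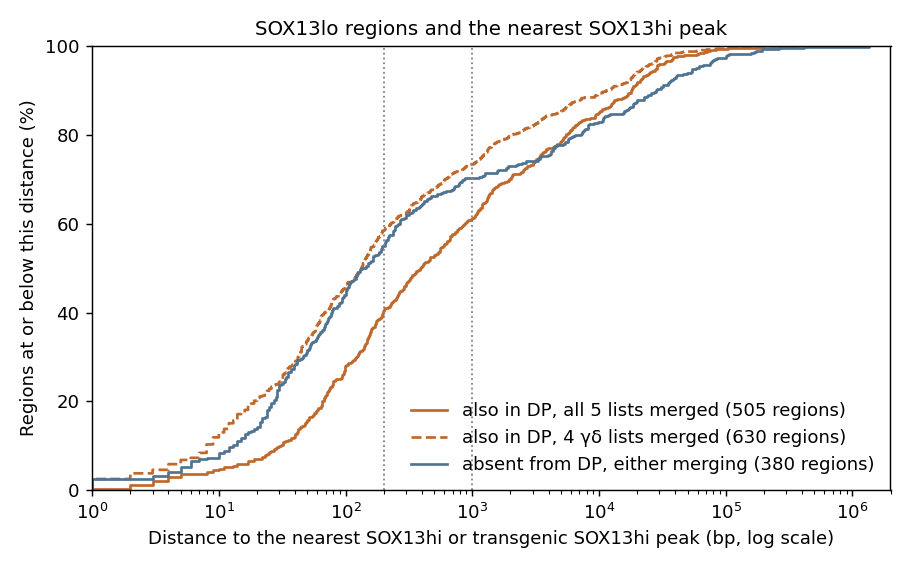
Cumulative share of regions (y axis, %) by distance to the nearest SOX13hi or transgenic SOX13hi peak (x axis, bp, log scale; a distance of 0 is drawn at 1 bp), for regions also in DP with all 5 lists merged (505) or the 4 γδ lists merged (630), and for the 380 absent from DP in either merging. Dotted lines mark 200 bp and 1 kb. At 200 bp the curves stand at 40.4%, 58.4% and 55.0%.

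By this distance the regions were described as flanked (a SOX13hi or transgenic SOX13hi peak within 200 bp), intermediate, or isolated (none within 1 kb). Of the 885, 413 were flanked, 163 intermediate and 309 isolated. With the 4 γδ lists merged, DP held 63.8% (59.7 to 67.7) of 577 flanked, 61.8% (53.6 to 69.6) of 152 intermediate and 59.8% (53.8 to 65.6) of 281 isolated regions, so the classes did not separate. The 49.4% of flanked and 63.4% of isolated regions that DP held with all 5 lists merged are affected by the joining described above. Isolated regions of both SOX13hi libraries were in DP in 48.2% (45.8 to 50.6) with the 4 γδ lists merged, and flanked ones in 58.4% (56.2 to 60.6). The peaks beside the flanked regions were of middling rank, with a median percentile of 53.7 in transgenic SOX13hi and 48.5 in SOX13hi.

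The surroundings of the isolated regions were close to those of other isolated SOX13lo regions in the balance of the libraries. Between 1 and 10 kb away there were on average 0.913 transgenic SOX13lo peaks per region, against 1.72 transgenic SOX13hi peaks. For the non-transgenic pair there were 1.89 SOX13lo peaks per region, against 1.33 SOX13hi peaks. After division by the number of autosomal peaks in each list, the ratio was 1.02 for transgenic SOX13lo over transgenic SOX13hi and 1.15 for SOX13lo over SOX13hi. Around the 6685 isolated regions found in SOX13lo alone these ratios were 1.01 and 1.15. Split by DP, the transgenic ratio was 0.952 for the 196 isolated regions with DP and 1.23 for the 113 without. The ratio of SOX13lo over SOX13hi was 1.15 with DP and 1.13 without. No interval was computed for these ratios.

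The regions of highest rank are given by position on mm9, as the 10 without DP and the 10 with DP whose lower percentile in the 2 SOX13lo lists was highest. In the named regions the SOX13lo and transgenic SOX13lo peaks shared from 7 bp (chr18:68378848-68378976) to 162 bp (chr4:62179990-62180161). Without DP, the first was chr15:31286780-31286888, with a score of 24 in transgenic SOX13lo (percentile 76.0) and 38 in SOX13lo (percentile 77.1). Its peaks, 77 bp wide in transgenic SOX13lo and 46 bp in SOX13lo, shared 14 bp. The nearest SOX13hi peak was 61185 bp away, the nearest transgenic SOX13hi peak 91943 bp and the nearest DP peak 61477 bp. It thus stood alone, apart from 2 further transgenic SOX13lo peaks and 1 further SOX13lo peak within 10 kb.

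The second, chr12:108959273-108959362, scored 23 in transgenic SOX13lo and 50 in SOX13lo, with SOX13hi and transgenic SOX13hi peaks 8210 and 8149 bp away. On the same chromosome, chr12:71320182-71320508 was the widest of the isolated regions named without DP, at 327 bp, with scores of 21 in transgenic SOX13lo and 64 in SOX13lo. Peaks of SOX13hi, transgenic SOX13hi and DP were 8145, 8292 and 7812 bp away. The region chr18:68378848-68378976 scored 29 in both SOX13lo lists and lay 2278 bp from a SOX13hi peak, but a DP peak began 4 bp from it. These 4 were the isolated regions among the 10 without DP.

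The other 6 without DP had a SOX13hi or transgenic SOX13hi peak within 1 kb. At chr15:102061398-102061579 (scores 20 in transgenic SOX13lo and 31 in SOX13lo) and chr4:62179990-62180161 (21 and 24) the nearest such peaks were 682 and 564 bp away. Near chr10:17912993-17913138 (23 and 32), chr13:24705409-24705464 (22 and 32), chr2:21126767-21127104 (20 and 75) and chr6:15730150-15730345 (25 and 24) the gaps were 39, 62, 150 and 21 bp. The neighbours at the last 2 were strong. Beside chr2:21126767-21127104 the nearest peaks scored 186 in SOX13hi (percentile 98.6) and 193 in transgenic SOX13hi (98.8), and beside chr6:15730150-15730345 they scored 42 (83.6) and 116 (96.5). Some of the higher-ranked regions were thus placed beside sites that SOX13hi cells also had open.

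With DP, the same held for the first 2. The region chr1:108610934-108611019 had the highest SOX13lo score of all 885, 248 (percentile 98.0), with 42 in transgenic SOX13lo (88.1) and 501 in DP (99.3). A SOX13hi peak of 313 bp with a score of 126 (96.5) began 14 bp away, and a transgenic SOX13hi peak with a score of 122 (96.8) was 54 bp away. At chr5:31504750-31504834, with scores of 34 in transgenic SOX13lo and 80 in SOX13lo, the gaps were 4 bp to SOX13hi and 7 bp to transgenic SOX13hi. DP scored 207 there (95.8).

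Isolated regions with DP were led by chr10:17707864-17708118. It scored 28 in transgenic SOX13lo (79.8) and 50 in SOX13lo (82.1) but 7 in DP (31.3), and the gaps were 33815 bp to SOX13hi and 21813 bp to transgenic SOX13hi. A second of the 885 regions, chr10:17707664-17707861, ended 2 bp before it, with scores of 13 in transgenic SOX13lo, 34 in SOX13lo and 5 in DP. At chr1:175350531-175350755 the scores were 21 in transgenic SOX13lo, 54 in SOX13lo and 44 in DP, with a SOX13hi peak 1336 bp off. At chr2:44837224-44837436 they were 20, 41 and 33, in the same order of libraries, with gaps of 2024 bp to SOX13hi and 2091 bp to transgenic SOX13hi. At chr4:46317658-46317894 they were 18, 25 and 19, and the nearest peaks of SOX13hi and transgenic SOX13hi were 83666 and 83694 bp away. No other SOX13lo or transgenic SOX13lo peak was within 10 kb of that region, and DP had 2 there.

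The remaining 4 named with DP were chr6:135312673-135312852, chr8:73197432-73197595, chr7:53842276-53842494 and chr13:104709939-104710071. Their scores were 26, 21, 19 and 18 in transgenic SOX13lo, 46, 27, 35 and 28 in SOX13lo, and 21, 49, 9 and 48 in DP. The nearest peak of either SOX13hi list was 661, 45, 590 and 55 bp away, so none of these was isolated.

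Along the genome the regions fell into 819 windows of 100 kb, and 760 of these held 1 region each. Some regions lay close together. Of 866 neighbouring pairs on the same chromosome, 110 had a gap of 100 kb or less and 18 a gap of 1000 bp or less. No expected count was computed, so whether the regions were scattered or clustered relative to other regions was not tested. A window with 3 or more occurred 6 times. The 4 regions at chr8:73100001-73200000 were the most in any window, where transgenic SOX13lo had 11 regions in all and SOX13lo 14, against 14 in transgenic SOX13hi, 13 in SOX13hi and 33 in DP. The window at chr19:53600001-53700000 held 3, all of them in DP. It had 9 regions of transgenic SOX13lo and 15 of SOX13lo, against 7 of transgenic SOX13hi, 10 of SOX13hi and 22 of DP.

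Windows with 3 regions also lay at chr3:96000001-96100000, chr9:112100001-112200000, chr16:49800001-49900000 and chr11:3000001-3100000. The chromosome 9 window had 9 regions of transgenic SOX13lo and 27 of SOX13lo, against 16 of transgenic SOX13hi, 10 of SOX13hi and 40 of DP, and none of its 3 regions was isolated. The chromosome 16 window had 9 and 23, against 12, 13 and 56, in the same order, and 2 of its 3 regions were isolated. The chromosome 11 window was dense in every library, with 125 to 143 regions in each. Among the 53 windows with 2 regions, chr1:135200001-135300000 had 13 regions of transgenic SOX13lo and 8 of SOX13lo, against 19 of transgenic SOX13hi, 1 of SOX13hi and 10 of DP. It was singled out among them after its values were seen. The other 3 windows that the rule named, at 43500001, 87500001 and 95900001 on chromosome 1, were taken from the tied windows by position alone.

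Per chromosome, the 885 regions were between 3.37% and 6.67% of the regions common to both SOX13lo libraries. Chromosome 17 had the highest share, with 59 of 884 (5.12 to 8.53), and chromosome 7 the lowest, with 44 of 1304 (2.46 to 4.50). The intervals of the other 17 autosomes held the share over all autosomes, 4.82%. Chromosomes 17 and 7 were picked from 19 after their values were seen.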

How the data were processed

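ATAC-seq peak lists of 5 libraries, 1 per group, were used as the authors deposited them. The build is mm9, per the submitters' processing notes. Aligner, peak caller, threshold and read depth were not given in the sources used here. Each peak has a deposited whole-number score with no stated meaning, so scores only ranked peaks within a list (ties at the mid-rank).

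Overlapping peaks of all lists (1 bp or more) were merged into regions, each counted for every library with a peak in it. Distances are bases between a region and the nearest peak. Shares have exact Clopper-Pearson 95% intervals, and the interval of the ratio is a log-normal 95% interval. They cover counting error only and treat regions as independent. Functions were tested on simulated lists. The members, the named-region rule and the alternatives were set with earlier results of these data known; the 200 bp class and the 1 to 10 kb ring were added after seeing the values, as were the shares by pattern, band and distance with the 4 γδ lists merged. The main merging includes DP, so presence in DP was not independent of the choice of regions; for that reason regions were also merged from the 4 γδ lists, with DP looked up by overlap (1 bp or more). Gene lists and motifs were not analysed here, since no mm9 annotation or genome was at hand. The tools were scipy 1.17.1, pandas 2.3.3, numpy 2.4.6 and matplotlib 3.10.9 in Python 3.11.15.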

Additional observations from a re-analysis of the deposited data

How the results depend on the processing

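With 1 library per group no result has a replicate check. No paired analysis was possible because each group has 1 library and no result comes from a test. The number of regions was 373 with the upper 50% of each list by score, 580 with peaks within 150 bp joined, 1400 with peak centres within 200 bp, 1976 with a reciprocal overlap of 50% and 367 when no peak of either SOX13hi list could lie within 500 bp. The centre and reciprocal rules count SOX13lo peaks, not merged regions. In the order upper 50%, equal numbers of peaks, 150 bp, merging of the 4 γδ lists, centres, reciprocal and 500 bp, the share in DP was 65.7%, 46.2%, 67.6%, 62.4%, 65.9%, 19.3% and 65.1%. The ratio to the regions of both SOX13hi libraries was 1.28, 1.29 and 1.26 with the upper 50%, equal numbers and 500 bp, and it was above 1 under each of the 9 alternatives (lowest 1.11, 1.00 to 1.24, with the reciprocal rule). Of 2 further alternatives, added after seeing the data, exchanging the SOX13lo and SOX13hi lists gave 405 regions, 42.2% in DP, a ratio of 0.652, 84.2% near a SOX13hi peak and 0 windows with 3 or more regions. The transgenic pair alone gave 5520 regions, 34.5% in DP, a ratio of 0.699 and 394 such windows. The share within 1 kb of a SOX13hi or transgenic SOX13hi peak was 41.6%, 48.9%, 31.2%, 72.2% and 95.7% with the upper 50%, equal numbers, 150 bp, the 4 γδ lists and the reciprocal rule. Windows with 3 or more regions numbered 1, 1, 36, 39 and 0 with the upper 50%, 150 bp, centres, reciprocal and 500 bp. Merging the 4 γδ lists differs by construction in that no DP peak joins regions; the cause of the other shifts was not tested. Of the 885 regions, 90 were found again with the upper 50% of each list, 314 with equal numbers of peaks and 421 with peaks within 150 bp joined.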

Other observations

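Of the 885 regions, 42 were found again under all 7 alternatives that work on merged regions, 22 of them in DP and 20 not. They lay on 15 chromosomes, and 22 had no SOX13hi or transgenic SOX13hi peak within 10 kb. Their scores ran from 12 to 29 in transgenic SOX13lo (median 15.5) and from 15 to 64 in SOX13lo (median 28.5). Of the 20 regions named by rank, 12 were among these 42. The 7 alternatives include the upper 50% of each list by score, and the 20 were named by rank in the same SOX13lo lists. This overlap and the lowest scores of the 42 were therefore in part built in. The alternatives also include absence of any peak of either SOX13hi list within 500 bp. Distance from such peaks was thus in part built in too.

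Some of the 885 regions lay on the same stretch of a chromosome, and 3 stretches were chosen after their values were seen. In the stretches on chromosomes 10 and 17 most gaps between neighbouring regions were over 100 kb. On chromosome 10, 4 of them lay between 17285081 and 17913138, a stretch of 628 kb, and 3 of these 4 were isolated. The stretch held 17 regions of transgenic SOX13lo and 33 of SOX13lo, against 29 of transgenic SOX13hi, 26 of SOX13hi and 41 of DP. On chromosome 16, 5 lay within 85.1 kb (49772936 to 49858013), 4 of them in DP. That stretch held 13 regions of transgenic SOX13lo and 29 of SOX13lo, against 19 of transgenic SOX13hi, 15 of SOX13hi and 62 of DP. On chromosome 17, 5 lay between 50329218 and 50871339, and 0 of these 5 were in DP. There were 19 regions of transgenic SOX13lo and 38 of SOX13lo there, against 26 of transgenic SOX13hi, 21 of SOX13hi and 39 of DP.

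Of the 380 regions absent from DP, 82 had no peak of SOX13hi, transgenic SOX13hi or DP within 1 kb, and 48 had none within 10 kb. Outside the autosomes, 16 regions on chromosome X and 2 on chromosome Y showed the same pattern in the γδ lists, and 9 and 1 of these were in DP.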
